A study of Mus musculus with 20 samples.

Results

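Whole retinas of Crx-/- mice were set against wild-type (WT) retinas at postnatal day 2 (P2). The comparison takes in all 566 genes of the P2 expression table, out of 1865 distinct genes over both ages' tables, and 4 of the series' 20 samples. Mice were on the C57BL/6J strain. The Crx-/- mice are labelled as lacking both copies of Crx, the series' other mutants carry 1 or 2 copies of a dominant Crx allele (CrxRip/+ and CrxRip/Rip) or lack Nrl (Nrl-/-), and WT retinas serve as the control. Every genotype had 2 samples at P2 and 2 at P21, and each sample pooled 2 retinas, so the spread given here is between pools and no value belongs to a single eye. RNA was sequenced with strand-specific libraries. Levels are FPKM, fragment numbers corrected for transcript length and library size, and the read depth behind them is unknown.

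Crx, the cone-rod homeobox gene, encodes a homeodomain transcription factor that is switched on in newly committed photoreceptor precursors. With its partner Nrl, the leucine zipper factor that directs precursors to the rod fate, it activates the genes of phototransduction, the outer segment and the photoreceptor synapse. At P2 the mouse retina holds cones that have left the cell cycle and rods that are still being born, before outer segments form. In bulk retina, fewer cells of a type and less RNA per cell cannot be told apart.

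A change is a difference of means of log2(FPKM + 1), which understates the change of low genes, and genes with a Benjamini-Hochberg adjusted limma p under 0.05 over all 566 genes count as called. At least 1 comparison of genotypes in the authors' deposited table passes their threshold for each gene listed. For 390 genes these comparisons all involved Nrl-/-, so the table was largely chosen on differences other than the one described here. In the authors' deposited table, 68 genes (12%) passed for Crx-/- against WT, 23 higher (4.06%) and 45 lower (7.95%). Of these 68 genes, 58 were called here. Crx itself has no P2 value in these data. At P21 it stood at 167.9 and 171.4 FPKM in Crx-/- retinas, against 350.7 and 343.9 FPKM in WT retinas, and a whole-transcript value does not show which part of the gene is missing. The median distance between replicates was 0.113 in Crx-/- and 0.114 in WT on the log2 scale, and the summed FPKM of the table was 5456.0 and 5508.0 in Crx-/- samples and 5449.5 and 5777.3 in WT samples.

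At P2 the loss of Crx was marked by lower transcripts of photoreceptor effectors, the short-wave cone opsin foremost, while the rod factors Nrl and Nr2e3 were not called, and by a smaller number of higher transcripts. In all, 169 genes (29.9%) were called, 52 higher (9.19%) and 117 lower (20.7%) in Crx-/-. Opn1sw, the short-wave cone opsin, had the largest fall at -3.77, and Obox6, a homeobox gene next to Crx on chromosome 7, had the largest rise at 2.81. The median change of all genes was -0.14. With the authors' scaling, taken from their fold changes and means, 56 genes were higher and 106 lower. A rescaling by the median of ratios over the table's genes, which moves Crx-/- up by 0.19 against WT, called 143 genes (25.3%). Of these 86 were higher (15.2%) and 57 lower (10.1%), so the balance of higher and lower calls turned under this rescaling. The 7 lists of photoreceptor genes had 26 lower and 1 higher of 53 members in the table (median -0.44), against the 20.7% lower and 9.19% higher of the whole table, and 21 lower and 3 higher after that rescaling. The 513 other genes had 51 higher and 91 lower (median -0.14), and 83 higher and 36 lower after rescaling. The 2 samples of each genotype did not overlap for 420 genes (74.2%), far more than were called. Each sample mattered to the total: 92 genes were called without Crx-/- replicate 1, 72 without Crx-/- replicate 2, 88 without WT replicate 1 and 90 without WT replicate 2. There were 59 genes called in the same direction under every setting that used all genes, 18 higher and 41 lower, and 19 of the lower ones belong to the photoreceptor lists.

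**Figure D1:**
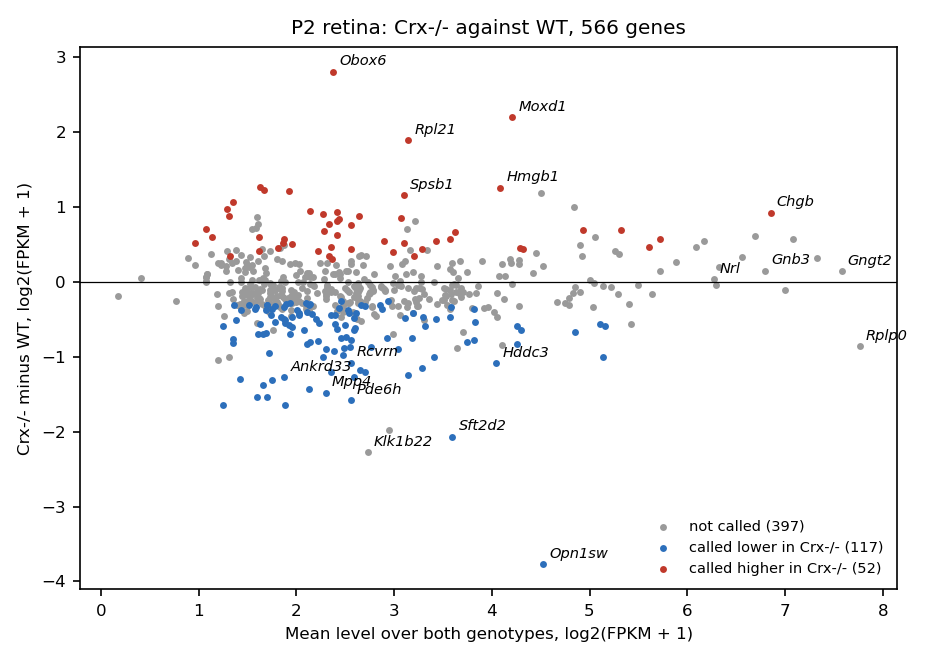
Change of each of the 566 P2 genes (y axis, Crx-/- minus WT, difference of log2(FPKM + 1)) against its mean level over both genotypes (x axis, log2(FPKM + 1)); colours give the 52 genes called higher, 117 called lower and 397 not called. Opn1sw lies lowest at -3.77 and Obox6 highest at 2.81, while the abundant cone genes Gnb3 and Gngt2 and the rod factor Nrl lie near 0.

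Among transcription regulators of photoreceptors, 2 of 7 measured members were lower and 5 were not called (median -0.10), beside 20.7% lower in the whole table. Ankrd33, a repressor of photoreceptor genes in precursors, was at 1.2 and 1.1 FPKM in Crx-/- samples, against 4.3 and 4.1 FPKM in WT samples (-1.27 ± 0.09 SE, adjusted p = 5.18e-05). Thrb, the thyroid hormone receptor that cones use to choose their opsin, was at 3.2 and 3.9 FPKM in Crx-/- against 5.8 and 5.7 FPKM in WT (-0.57 ± 0.09, adjusted p = 0.00266). Both genes separated the genotypes without overlap, and both calls held whichever sample was left out.

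The factors that set rod identity were not called. Nrl had 73.0 and 81.6 FPKM in Crx-/- and 69.4 and 81.0 FPKM in WT (adjusted p = 0.823). Nr2e3, a nuclear receptor that keeps cone genes off in rods, had 112.4 and 133.2 FPKM in Crx-/- and 120.3 and 143.8 FPKM in WT (adjusted p = 0.625). In both genes the samples of the genotypes overlapped. Samd7, which represses non-rod genes in rods, had 29.3 and 38.9 FPKM in Crx-/- and 20.7 and 27.0 FPKM in WT; the samples did not overlap, and the change of 0.50 missed the threshold (adjusted p = 0.0583) and was called higher after the median-of-ratios rescaling and without Crx-/- replicate 1. Rxrg, a retinoid receptor of cones, changed by -0.28 (adjusted p = 0.0892), and Sall3, a zinc finger regulator found in cones and inner retina, by 0.31 (adjusted p = 0.127).

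Cone genes were split. Among 10 measured members 4 were lower and 1 higher (median 0.04), with the same counts after rescaling. Opn1sw was at 1.8 and 2.5 FPKM in Crx-/-, against 40.6 and 43.0 FPKM in WT (-3.77 ± 0.11, adjusted p = 3.18e-07). Pde6h, which inhibits the cone phosphodiesterase, was at 1.7 and 2.2 FPKM in Crx-/- against 7.0 and 8.6 FPKM in WT (-1.58 ± 0.12, adjusted p = 0.000146). Otop3, a member of the otopetrin family of proton channels, changed by -0.75 (5.3 and 6.3 FPKM in Crx-/-, 10 and 10.8 FPKM in WT). Gnat2, the alpha subunit of cone transducin, was at 6.7 and 7.2 FPKM in Crx-/- against 10.2 and 11.7 FPKM in WT (-0.59 ± 0.12, adjusted p = 0.0119), a call lost without Crx-/- replicate 1 or without WT replicate 2.

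The subunits that work beside Gnat2 were not called. Gnb3, the beta subunit of cone transducin, had 109.2 and 122.4 FPKM in Crx-/- and 96.8 and 111.7 FPKM in WT (0.15 ± 0.15). Gngt2, the gamma subunit, had 178.9 and 220.5 FPKM in Crx-/- and 171.1 and 190.0 FPKM in WT (0.14 ± 0.17). In both genes the samples of the genotypes overlapped. Pde6c, the catalytic subunit of the cone phosphodiesterase that Pde6h inhibits, was higher, at 3.2 and 3.9 FPKM in Crx-/- against 2.1 and 2.3 FPKM in WT (0.50 ± 0.11, adjusted p = 0.0164), a call lost without Crx-/- replicate 2 or without WT replicate 1. Ccdc136 and the cone channel subunits Cnga3 and Cngb3 were not called.

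Of 8 rod genes 5 were lower (median -0.72), with 3 not called, and lower in 4 of 8 after rescaling. Cnga1, a subunit of the rod cyclic nucleotide-gated channel, was at 0.6 and 0.9 FPKM in Crx-/- against 3.1 and 6.2 FPKM in WT (-1.64 ± 0.24, adjusted p = 0.00185). Nxnl1, which encodes the rod-derived cone viability factor, was at 0.7 and 1.2 FPKM in Crx-/- against 4.3 and 3.3 FPKM in WT (-1.30 ± 0.16). Both genes were below both WT samples in both Crx-/- samples, with the WT samples of Cnga1 far apart from each other.

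Reep6, an endoplasmic reticulum protein of rods, changed by -0.78 (3.1 and 3.6 FPKM in Crx-/-, 6.1 and 6.8 FPKM in WT). Pde6g, the inhibitory subunit of the rod phosphodiesterase, changed by -0.67 (19.5 and 23.1 FPKM in Crx-/-, 30.3 and 38.8 FPKM in WT), and its call was lost after rescaling and without Crx-/- replicate 1, Crx-/- replicate 2 or WT replicate 2. Other abundant rod transcripts stayed inside the WT range or close to it. Sag, the rod arrestin, had 44.6 and 47.2 FPKM in Crx-/- and 46.4 and 56.8 FPKM in WT (adjusted p = 0.577). Pde6b, a catalytic subunit of the rod phosphodiesterase, had 15 and 19.1 FPKM in Crx-/- and 14.4 and 17.7 FPKM in WT (adjusted p = 0.729). Gngt1, the gamma subunit of rod transducin, changed by -0.16 and was not called.

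**Figure D2:**
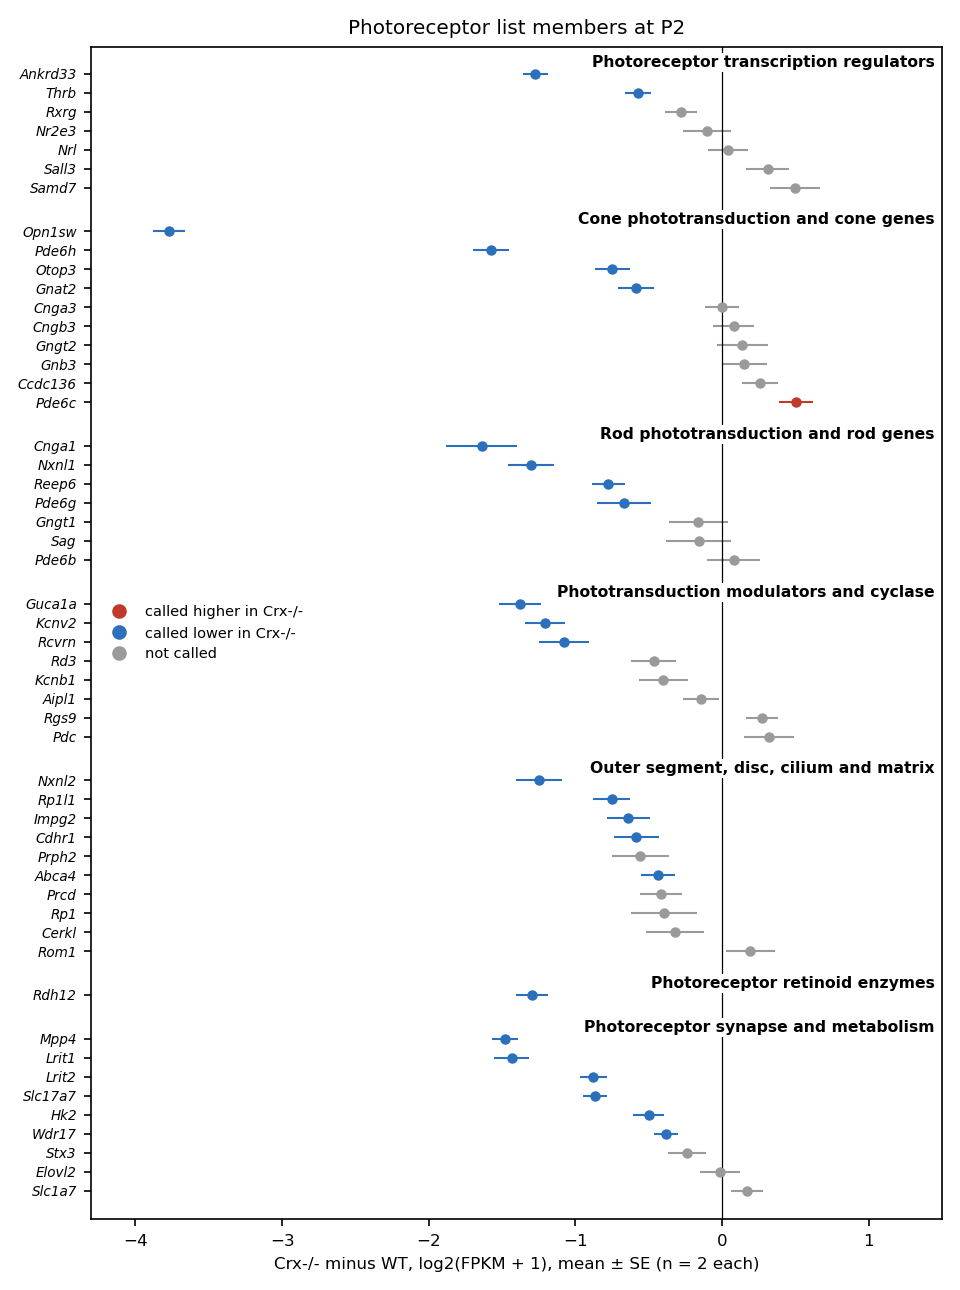
Change at P2 (x axis, Crx-/- minus WT, log2(FPKM + 1), point and bar mean ± SE, n = 2 each) of 52 of the 53 members of the 7 photoreceptor lists, grouped by list. The SE is that of the fit of all 10 P2 samples, not of the 4 samples alone. Of those drawn, 25 are called lower, 1 higher (Pde6c) and 26 are not called, and every list of more than 1 gene holds both called and uncalled members.

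Genes that tune phototransduction were lower in 3 of 8 (median -0.43), with 5 not called. Guca1a, a calcium sensor that activates guanylate cyclase, was at 0.9 and 0.6 FPKM in Crx-/- against 3.2 and 3.9 FPKM in WT (-1.38 ± 0.14, adjusted p = 0.000469). Kcnv2, a potassium channel subunit of photoreceptors, was at 1.8 and 2.4 FPKM in Crx-/- against 5.5 and 6.8 FPKM in WT (-1.21 ± 0.14). Rcvrn, recoverin, a calcium sensor of photoreceptors, was at 2.6 and 2.9 FPKM in Crx-/- against 5.8 and 8.2 FPKM in WT (-1.08 ± 0.17, adjusted p = 0.00279). The 3 calls held whichever sample was left out. Pdc, phosducin, which binds transducin and was the most abundant member, had 163.4 and 191.9 FPKM in Crx-/- and 129.4 and 155.5 FPKM in WT (0.32 ± 0.17, adjusted p = 0.173). Its samples did not overlap, and it was not called. Rgs9, which speeds the inactivation of transducin, changed by 0.27 and Aipl1, which helps the phosphodiesterase to fold, by -0.15, both uncalled, though Rgs9 was called higher after rescaling.

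Outer segment, disc, cilium and matrix genes were lower in 5 of 10 (median -0.50), with 5 not called, and lower in 2 of 10 after rescaling. Nxnl2, which encodes a thioredoxin-like protein of photoreceptors, was at 4.3 and 4.1 FPKM in Crx-/- against 9.6 and 13.4 FPKM in WT (-1.25 ± 0.16, adjusted p = 0.000926). Rp1l1, a protein of the photoreceptor axoneme, changed by -0.75 (2.7 and 3.5 FPKM in Crx-/-, 5.3 and 6.5 FPKM in WT). These 2 calls held in every setting tried.

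The calls of Impg2, a proteoglycan of the matrix between photoreceptors (-0.64), of Cdhr1, a cadherin of the outer segment base (-0.59), and of Abca4, the disc flippase (-0.44), were each lost after rescaling. The calls of Impg2 and Abca4 were also lost without Crx-/- replicate 1, Crx-/- replicate 2 or WT replicate 2, and that of Cdhr1 without Crx-/- replicate 1, WT replicate 1 or WT replicate 2 and with the 4 samples fitted alone. Prph2, the disc rim protein, had 29.7 and 37.8 FPKM in Crx-/- and 44.0 and 56.3 FPKM in WT (-0.56 ± 0.20, adjusted p = 0.0616). Rom1, its partner at the rim, had 78.0 and 90.3 FPKM in Crx-/- and 65.9 and 81.6 FPKM in WT (0.19 ± 0.17). Prph2 was below WT in both samples and Rom1 overlapped. The retinol dehydrogenase Rdh12, the one photoreceptor retinoid enzyme in the table, was at 0.5 and 0.6 FPKM in Crx-/- against 2.7 and 2.9 FPKM in WT (-1.29 ± 0.11, adjusted p = 0.000177).

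The list of photoreceptor synapse and metabolism genes was lower in 6 of 9 (median -0.50), with 3 not called, and lower in 5 of 9 after rescaling. Mpp4, a scaffold of the photoreceptor terminal, was at 1.5 and 1.7 FPKM in Crx-/- against 6.1 and 6.4 FPKM in WT (-1.48 ± 0.09, adjusted p = 2.73e-05). Lrit1, a leucine-rich membrane protein of the photoreceptor synapse, was at 1.3 and 1.4 FPKM in Crx-/- against 4.6 and 6.2 FPKM in WT (-1.43 ± 0.12, adjusted p = 0.000165). Lrit2, its neighbour on chromosome 14 with 0 genes between them in RefSeq, was at 2.8 and 3.1 FPKM in Crx-/- against 6.3 and 6.2 FPKM in WT (-0.88 ± 0.09). The pair of neighbours fell together.

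Slc17a7, the vesicular glutamate transporter of photoreceptor and bipolar terminals, was at 3.9 and 3.7 FPKM in Crx-/- against 7.6 and 7.9 FPKM in WT (-0.87 ± 0.08, adjusted p = 0.000354). Hk2, the hexokinase of photoreceptor glycolysis, changed by -0.50 and lost its call without Crx-/- replicate 1, Crx-/- replicate 2 or WT replicate 1. Elovl2, a fatty acid elongase, had 31.9 and 31.7 FPKM in Crx-/-, and 29.1 and 35.4 FPKM in WT, and the syntaxin Stx3 and the glutamate transporter Slc1a7 were not called either. In 44 of the 53 photoreceptor members Crx-/- replicate 2 was above Crx-/- replicate 1, and in 46 of 53 WT replicate 2 was above WT replicate 1, against 218 and 270 of the 513 other genes. The part of this difference between replicates in the results was not tested.

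The promoters of the genes that fell most are shown because Crx binds sites built around TAATCC, which is the motif searched here on both strands (TAATCC or its complement GGATTA). Sequences are RefSeq's, build GRCm38.p6, from 250 bases before to 50 bases after the annotated start, 5′ to 3′ on the strand of the gene, with the motif in capitals and positions of its first base counted from the start. Opn1sw (chr6:29380464-29380763, minus strand) and Pde6h (chr6:136954273-136954572, plus strand), the cone genes with the largest falls, hold no match, and Cnga1 (chr5:72642703-72643002, minus strand), the rod gene with the largest fall, holds 1 at -228.
Opn1sw: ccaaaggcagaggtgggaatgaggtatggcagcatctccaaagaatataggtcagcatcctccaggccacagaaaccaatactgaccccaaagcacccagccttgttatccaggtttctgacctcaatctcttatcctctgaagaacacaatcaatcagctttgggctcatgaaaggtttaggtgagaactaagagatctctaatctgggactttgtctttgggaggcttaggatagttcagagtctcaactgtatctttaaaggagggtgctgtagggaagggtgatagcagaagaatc
Pde6h: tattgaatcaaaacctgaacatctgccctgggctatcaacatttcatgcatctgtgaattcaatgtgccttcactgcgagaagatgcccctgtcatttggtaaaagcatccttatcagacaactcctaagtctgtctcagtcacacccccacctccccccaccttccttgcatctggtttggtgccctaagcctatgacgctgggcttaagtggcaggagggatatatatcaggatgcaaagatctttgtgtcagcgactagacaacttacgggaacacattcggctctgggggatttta
Cnga1: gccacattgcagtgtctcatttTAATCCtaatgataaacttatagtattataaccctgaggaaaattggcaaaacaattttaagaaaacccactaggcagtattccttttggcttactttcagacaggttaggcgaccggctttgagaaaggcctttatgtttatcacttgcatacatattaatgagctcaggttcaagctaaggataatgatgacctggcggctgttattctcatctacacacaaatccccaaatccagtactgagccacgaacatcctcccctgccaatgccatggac

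Guca1a (chr17:47400557-47400856, minus strand) and the neighbours Lrit1 (chr14:37054580-37054879, plus strand) and Lrit2 (chr14:37067779-37068078, plus strand) were picked with their values known, as genes with a match close to the start, at -57, -50 and -37.
Guca1a: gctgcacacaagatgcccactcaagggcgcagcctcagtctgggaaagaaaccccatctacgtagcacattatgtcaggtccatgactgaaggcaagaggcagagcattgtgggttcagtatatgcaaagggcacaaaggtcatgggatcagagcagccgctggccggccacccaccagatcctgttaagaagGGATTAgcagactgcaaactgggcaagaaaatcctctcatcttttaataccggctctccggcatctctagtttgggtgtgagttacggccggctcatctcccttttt
Lrit1: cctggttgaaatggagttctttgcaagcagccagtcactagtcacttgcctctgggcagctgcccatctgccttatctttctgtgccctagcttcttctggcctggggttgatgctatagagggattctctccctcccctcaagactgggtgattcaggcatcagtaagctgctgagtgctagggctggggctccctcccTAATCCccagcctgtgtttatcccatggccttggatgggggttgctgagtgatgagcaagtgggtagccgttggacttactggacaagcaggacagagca
Lrit2: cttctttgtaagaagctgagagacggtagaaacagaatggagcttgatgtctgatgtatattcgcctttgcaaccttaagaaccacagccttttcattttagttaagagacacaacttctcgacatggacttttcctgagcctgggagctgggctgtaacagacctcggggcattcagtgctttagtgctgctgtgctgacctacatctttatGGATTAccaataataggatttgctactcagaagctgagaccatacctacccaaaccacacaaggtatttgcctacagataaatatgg

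Sft2d2 (chr1:165194389-165194688, minus strand), which is no photoreceptor gene and had the second largest fall among the called genes, holds 1 match at -214, and Moxd1 (chr10:24223267-24223566, plus strand), a gene that rose, holds none.
Sft2d2: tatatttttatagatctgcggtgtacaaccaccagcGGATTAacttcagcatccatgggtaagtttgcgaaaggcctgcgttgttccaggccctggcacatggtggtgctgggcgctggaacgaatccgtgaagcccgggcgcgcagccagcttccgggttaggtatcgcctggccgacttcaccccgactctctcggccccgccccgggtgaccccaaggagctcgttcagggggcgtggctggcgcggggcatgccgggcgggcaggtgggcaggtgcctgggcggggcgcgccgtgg
Moxd1: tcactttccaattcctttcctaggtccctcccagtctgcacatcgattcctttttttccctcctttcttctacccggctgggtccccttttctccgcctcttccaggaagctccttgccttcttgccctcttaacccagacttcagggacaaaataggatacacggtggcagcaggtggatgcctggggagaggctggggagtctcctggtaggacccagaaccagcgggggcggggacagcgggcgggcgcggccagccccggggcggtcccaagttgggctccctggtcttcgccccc

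Over all 27025 RefSeq promoters of this length 7.16% hold the motif. Of the 442 P2 table genes with a promoter entry 10.9% do, with 18.9% of 90 called lower, 5.13% of 39 called higher and 9.27% of 313 not called. Among photoreceptor members it stands in 9 of 19 that were lower and in 6 of 20 that were not. Besides the genes shown, the lower genes Thrb (-46), Gnat2 (-19), Otop3 (-32), Abca4 (-58) and Nxnl2 (-152) hold it, and so do Sag, Gngt1, Aipl1 and Samd7, which were not called. A match is a description of these letters and shows no binding, and its absence from a window says nothing of the factor.

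Bipolar genes, which mark the interneurons that photoreceptors contact, were higher in 3 and lower in 1 of 6 (median 0.31), with the same counts after rescaling. The whole table had 9.19% higher and 20.7% lower, and 15.2% and 10.1% after rescaling. Lhx3, a LIM homeobox factor, was at 3.0 and 3.9 FPKM in Crx-/- against 1.0 and 0.8 FPKM in WT (1.22 ± 0.18, adjusted p = 0.00168). Its relative Lhx4, present in bipolar cells and developing cones, was at 13.2 and 15 FPKM in Crx-/- against 8.2 and 8.8 FPKM in WT (0.67 ± 0.11, adjusted p = 0.00279). Both rose without overlap in every setting tried. Pcp2, a modulator of the ON bipolar G protein, changed by 0.41 and lost its call without Crx-/- replicate 1, Crx-/- replicate 2 or WT replicate 1, and with the 4 samples fitted alone. Cabp5, a calcium-binding protein of bipolar terminals, was the lower member, at 1.4 and 1.1 FPKM in Crx-/- against 3.6 and 3.1 FPKM in WT (-0.95 ± 0.11, adjusted p = 0.000568). Cabp5 is also among the 18 table genes nearest to Crx on chromosome 7, described below. Trpm1, the ON bipolar channel, and the homeobox gene Irx6 were not called, though Irx6 was called lower with the 4 samples fitted alone.

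The 3 largest rises, in Obox6, Moxd1 and Rpl21, lay outside the lists of retinal cell types. Obox6, an oocyte-type homeobox gene, was at 7.8 and 8.4 FPKM in Crx-/- against 0.3 and 0.3 FPKM in WT (2.81 ± 0.13, adjusted p = 5.64e-06), and at 0.1 to 0.3 FPKM in every sample of the other mutants. Moxd1, a relative of dopamine beta-hydroxylase, was at 27.5 and 31.1 FPKM in Crx-/- against 5.3 and 5.9 FPKM in WT (2.20 ± 0.19, adjusted p = 0.000177). Spsb1, an adaptor of ubiquitin ligases, was at 11.3 and 10.4 FPKM in Crx-/- against 4.3 and 4.3 FPKM in WT (1.16 ± 0.10). These 3 rises held in every setting tried.

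Chgb, chromogranin B of secretory granules, was the most abundant gene that rose, at 145.6 and 155.1 FPKM in Crx-/- against 73.3 and 84.4 FPKM in WT (0.93 ± 0.14, adjusted p = 0.00236). Irf5, an interferon regulatory factor, was at 5.4 and 5.2 FPKM in Crx-/- against 2.3 and 2.4 FPKM in WT (0.91 ± 0.10), Lmo2, a LIM-only cofactor, at 4.9 and 4.7 FPKM in Crx-/- against 2.0 and 2.0 FPKM in WT (0.95 ± 0.12), and Arid3c, a DNA-binding protein, at 9.9 and 9.6 FPKM in Crx-/- against 4.5 and 5.5 FPKM in WT (0.85 ± 0.10). Stac3, an adaptor of muscle calcium channels, rose by 0.83. In Lmo2 both Crx-/- samples lay above both WT samples, which for Chgb, Irf5, Arid3c and Stac3 was a condition of being named.

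Rpl21, a ribosomal protein gene, was at 12.8 and 13.0 FPKM in Crx-/- against 2.9 and 2.6 FPKM in WT (1.89 ± 0.19), and Hmgb1, a chromatin protein gene, at 24.3 and 21.6 FPKM in Crx-/- against 9.0 and 9.0 FPKM in WT (1.26 ± 0.14). Both are uncertain because both have many near-identical processed pseudogenes, to which reads could have been split, and Rpl21 stood at 7.8 to 14.0 FPKM in every mutant sample. Rpl28 rose by 0.93 under the same reservation. Rpl29, another ribosomal gene, was at 39.2 and 35.3 FPKM in Crx-/- and 19.1 and 17.3 FPKM in WT without a call (adjusted p = 0.325), and a CrxRip/Rip sample at 1.3 FPKM beside 17.4 FPKM in the other enters the spread of its fit. With the 4 samples fitted alone Rpl29 was called higher.

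**Figure D3:**
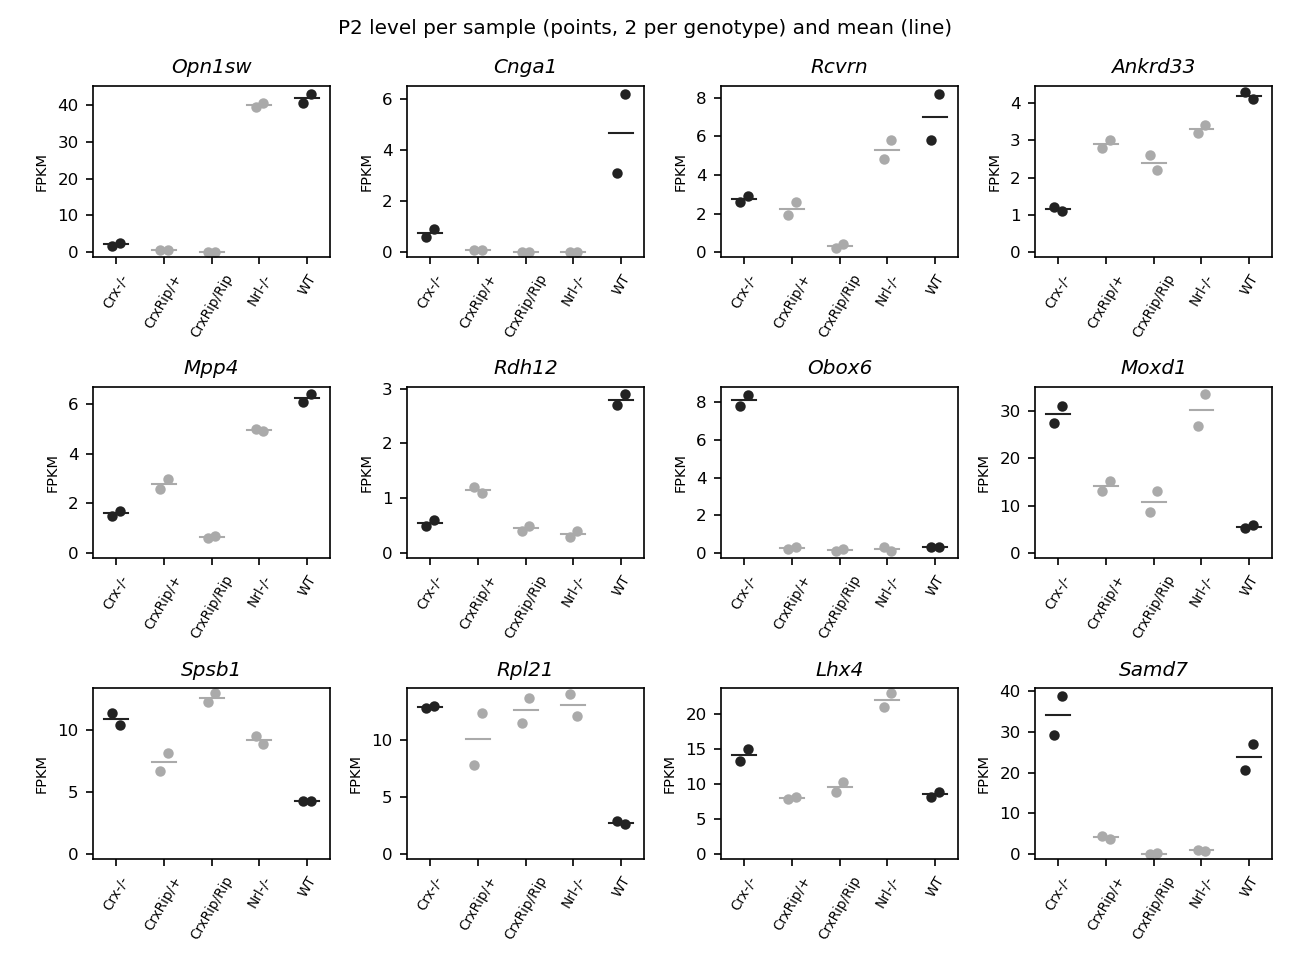
FPKM of 12 genes in each of the 2 P2 samples (points) and their mean (line) for Crx-/-, CrxRip/+, CrxRip/Rip, Nrl-/- and WT, with Crx-/- and WT in black. Opn1sw stands at 1.8 and 2.5 in Crx-/- and at 40.6 and 43.0 in WT, Obox6 is above 1 FPKM in Crx-/- alone, and Samd7 reaches 29.3 and 38.9 in Crx-/- against at most 4.4 in the other mutants.

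Among the genes that fell outside the photoreceptor lists, Sft2d2, a vesicle transport protein, was at 3.8 and 3.2 FPKM in Crx-/- against 24.4 and 12.9 FPKM in WT (-2.07 ± 0.24, adjusted p = 0.000644), with the WT samples far from each other and the other mutants at 2.8 to 4.1 FPKM. Hddc3, a phosphohydrolase, was at 10.3 and 8.8 FPKM in Crx-/- against 19.9 and 22.9 FPKM in WT (-1.09 ± 0.14). Slc1a5, a neutral amino acid transporter, was at 2.3 and 2.1 FPKM in Crx-/- against 5.9 and 5.0 FPKM in WT (-1.01 ± 0.12, adjusted p = 0.000793). Gsta4, a glutathione transferase, was at 5.7 and 6.4 FPKM in Crx-/- against 13.3 and 13.0 FPKM in WT (-1.01 ± 0.12). No overlap between samples was a condition for naming these 4 genes. Their calls held in every setting tried.

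Less steady falls were seen in Piezo1, a mechanosensitive channel (-1.28, call lost without either Crx-/- sample or WT replicate 1), Mmp2, a matrix protease (-1.18, lost without either WT sample and with the 4 samples fitted alone), and Pttg1, securin (-1.15, lost whichever sample was left out and after rescaling). Ano2, a calcium-activated chloride channel of photoreceptor terminals, was at 3.2 and 3.3 FPKM in Crx-/- against 5.9 and 6.3 FPKM in WT (-0.74 ± 0.10, adjusted p = 0.00163). Klk1b22, a kallikrein, was listed at 0 in both Crx-/- samples and at 0 and 22.5 FPKM in the WT samples, so the 1 WT sample that holds it decides its change of -2.28, which was not called (adjusted p = 0.151). Rplp0, a ribosomal protein gene, was at 209.9 and 107.1 FPKM in Crx-/- and 294.9 and 253.3 FPKM in WT, also uncalled (adjusted p = 0.0566).

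Zinc finger genes recognised by symbol (Zfp, Zscan, Zbtb and Zkscan), many of them DNA-binding repressors, were gathered after their values were seen. Of 32 in the table, 15 were lower and 1 was higher in Crx-/- (median -0.28, against -0.14 for all genes), beside 20.7% lower and 9.19% higher of all genes. After the median-of-ratios rescaling 3 of the 15 (Zfp111, Zfp365 and Zfp729a) stayed lower, beside 10.1% lower of all genes. Set against the same WT samples, 29 of the 32 were lower in Nrl-/- (64.7% of all genes), 2 in CrxRip/+ (12.7%) and 2 in CrxRip/Rip (21.2%). Of the lower ones, Zfp324, Zscan22, Zfp111, Zfp60, Zfp82, Zfp658 and Zfp719 lie on chromosome 7, where others such as Zfp112 and Zfp94 were not called. Zfp324, Zscan22 and Zfp111 are also among the 18 table genes nearest to Crx, described below.

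Markers of other cell types were few in the table. The horizontal cell, microglia and lens lists had 0 members, amacrine cells had 2 (Nr4a2 among them), ganglion cells 1 (Pou4f3) and Müller glia 2 (Gfap and Socs3), which were not called, apart from a lower call of Nr4a2 with the 4 samples fitted alone. Gfap, the glial filament gene, was at 6.5 and 14.8 FPKM in Crx-/- and 10.1 and 4.9 FPKM in WT, with overlapping samples. Fgf15, a progenitor growth factor, was at 30.8 and 23.0 FPKM in Crx-/- against 45.1 and 34.8 FPKM in WT (-0.56 ± 0.18, adjusted p = 0.0462), a call lost after either rescaling, with the 4 samples fitted alone, and without Crx-/- replicate 2 or WT replicate 1. Of 2 pigment epithelium genes Ttr, transthyretin, was higher (4.9 and 6.7 FPKM in Crx-/-, 2.6 and 3.1 FPKM in WT, adjusted p = 0.0338, lost whichever sample was left out) and Tyrp1 was called only with the 4 samples fitted alone, and their sum was 7.7 and 9.5 FPKM in Crx-/- and 4.6 and 4.8 FPKM in WT. The 3 vascular genes summed to 84.1 and 80.6 FPKM in Crx-/- and 58.3 and 59.2 FPKM in WT without a call. The part of these markers in the results was not tested. Of 4 stress genes 3 were higher: Hmox1, heme oxygenase (0.78, call lost without Crx-/- replicate 2), Mt2, a metallothionein (0.60, lost without Crx-/- replicate 2 or WT replicate 1), and Trp53inp1, a p53 target (0.45, lost without either Crx-/- sample or WT replicate 1). The whole table had 9.19% higher, and 15.2% after rescaling, when 3 of the 4 were higher too. Against the same WT samples all 4 were higher in Nrl-/-, and 0 in CrxRip/+ and in CrxRip/Rip. The share of all genes called higher in those mutants was not counted, so these numbers have no baseline and nothing is read from them.

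Genes around Crx itself were read along chromosome 7, in RefSeq order. Chromosome 7 held 58 genes of the table, of which 18 were the nearest to Crx (8 before it and the 10 next after it). Of these 18 genes 9 were called (50%), 2 higher and 7 lower, against 14 of the 40 other table genes of the chromosome (35.0%) and 146 of 508 on other chromosomes (28.7%). After rescaling, 7 of the 18 were called. Obox6 stands directly beside Crx, with 0 RefSeq genes between them. Cox6b2, a testis-type subunit of cytochrome oxidase, was at 4.7 and 4.8 FPKM in Crx-/- against 10 and 9.5 FPKM in WT (-0.90 ± 0.10, adjusted p = 0.000568). Zfp111, a zinc finger gene, was at 2.0 and 2.0 FPKM in Crx-/- against 3.5 and 3.3 FPKM in WT (-0.55 ± 0.07). With Slc1a5, Rpl28 and Obox6, these are 5 genes of the 18 (27.8%) that were called in the same direction against WT and against each of the 3 other mutants. There were 3 of them without Crx-/- replicate 2 (Cox6b2 and Rpl28 no longer met the condition) and 4 without Crx-/- replicate 1 or after rescaling. The labels do not say whether DNA beyond Crx differs around the locus in these mice, so its part and that of Crx in the values of these neighbours cannot be told apart.

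Across the table, 21 genes met that condition, 10 higher (1.77%) and 11 lower (1.94%). Besides the 5 near Crx, they were 2 of the 40 other chromosome 7 genes (5.0%) and 14 of the 508 elsewhere (2.76%). The higher ones were Obox6, Gje1, Irf5, Hmox1, Sema7a, Rpl28, Gsg1l, Paqr3, Pcare and Lxn. The lower ones were Ankrd33, Slc1a5, Htra1, Cox6b2, Cd59a, L3hypdh, Gpr135, Bend4, Padi2, Lynx1 and Zfp111. After rescaling 5 higher and 12 lower genes met it, of which 4 and 8 were among these 21. Those that no longer met it after rescaling were Bend4, Gsg1l, Hmox1, Irf5, Lynx1, Padi2, Paqr3, Rpl28 and Sema7a. Bend4, Cox6b2, Gje1, Hmox1, L3hypdh, Lxn and Padi2 no longer met it without either Crx-/- sample. Htra1 and Lynx1 no longer met it without Crx-/- replicate 1, and Gpr135, Pcare, Rpl28 and Sema7a without Crx-/- replicate 2. No test of position was made.

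**Figure D4:**
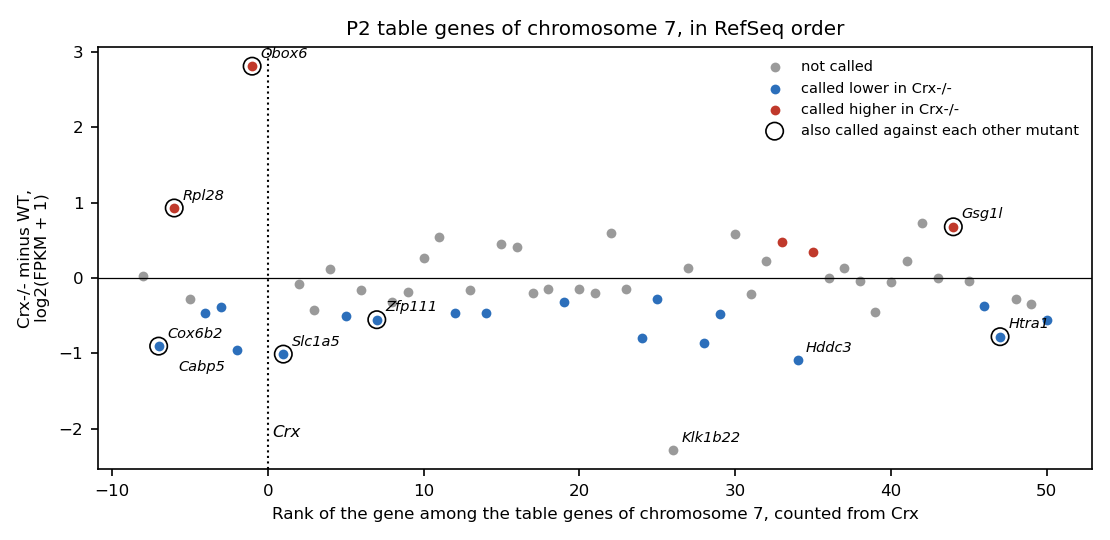
Change at P2 (y axis, Crx-/- minus WT, log2(FPKM + 1)) of the 58 table genes of chromosome 7 by their rank from Crx (x axis, dotted line at Crx), with called genes coloured and circles on genes called in the same direction against WT and each other mutant. Of the 18 nearest genes 9 are called and 5 circled, against 14 and 2 of the 40 others.

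The direct comparison with the other mutants shows where Crx-/- stands apart at the same age. The 2 Crx-/- samples enter all of these comparisons, so they are set side by side. Against CrxRip/+ 162 genes (28.6%) were called, 71 higher (12.5%) and 91 lower (16.1%) in Crx-/-, and 84 higher and 41 lower after rescaling. Cone genes were higher in Crx-/- in 9 of 10, and synapse and metabolism genes were lower in 6 of 9 (3 of 9 after rescaling). Gnb3 stood at 109.2 and 122.4 FPKM in Crx-/- against 35.1 and 43.2 FPKM in CrxRip/+ (1.55 ± 0.15), and Opn1sw at 1.8 and 2.5 FPKM in Crx-/- against 0.6 and 0.6 FPKM in CrxRip/+ (0.97 ± 0.11). Mpp4 was lower, at 1.5 and 1.7 FPKM in Crx-/- against 2.6 and 3.0 FPKM in CrxRip/+ (-0.55 ± 0.09), and so was Lrit1 (-0.82 ± 0.12). The count fell to 90 without Crx-/- replicate 1, 78 without Crx-/- replicate 2, 86 without CrxRip/+ replicate 1 and 93 without CrxRip/+ replicate 2.

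Against CrxRip/Rip 234 genes (41.3%) were called, 131 higher (23.1%) and 103 lower (18.2%), with 136 in all without Crx-/- replicate 2 and 133 when the 4 samples were fitted alone. Photoreceptor genes were higher in Crx-/- in 41 of 53 and lower in 1, with the same counts after rescaling. All 10 cone genes, 7 of 8 rod genes and 6 of 7 transcription regulators were higher. Samd7 was at 29.3 and 38.9 FPKM in Crx-/- against 0.1 and 0.2 FPKM in CrxRip/Rip (4.92 ± 0.17), and Nrl at 73.0 and 81.6 FPKM in Crx-/- against 36.5 and 43.2 FPKM in CrxRip/Rip (0.94 ± 0.14). Sag stood at 44.6 and 47.2 FPKM in Crx-/- against 5.2 and 9.2 FPKM in CrxRip/Rip (2.56 ± 0.22). Ankrd33 was the lower member, at 1.2 and 1.1 FPKM in Crx-/- against 2.6 and 2.2 FPKM in CrxRip/Rip (-0.66 ± 0.09). Rdh12 and Lrit1, both called lower against WT, were not called against CrxRip/Rip (0.10 ± 0.11 and 0.20 ± 0.12).

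Against Nrl-/- 446 genes (78.8%) were called, 339 higher (59.9%) and 107 lower (18.9%). With the authors' scaling 326 were higher and 127 lower. Median-of-ratios rescaling moves Crx-/- against Nrl-/- by -0.87 and called 76 higher and 185 lower, so the totals turned under this rescaling. Rod genes were higher in Crx-/- in 7 of 8 in each of these settings. Cone genes were lower in 6 of 10, in 8 of 10 with the authors' scaling and in 10 of 10 after median-of-ratios rescaling. Opn1sw was at 1.8 and 2.5 FPKM in Crx-/- against 39.5 and 40.5 FPKM in Nrl-/- (-3.71 ± 0.11), and Pde6h at 1.7 and 2.2 FPKM in Crx-/- against 14.3 and 12.2 FPKM in Nrl-/- (-2.27 ± 0.12). Cnga1 was listed at 0 in both Nrl-/- samples and stood at 0.6 and 0.9 FPKM in Crx-/-. Moxd1, at 27.5 and 31.1 FPKM in Crx-/- and 26.8 and 33.6 FPKM in Nrl-/-, was not called (-0.04 ± 0.19).

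At P21, in other samples of the same genotypes, 1217 of 1497 genes (81.3%) were called for Crx-/- against WT, 596 higher (39.8%) and 621 lower (41.5%). There were 198 genes in both tables. Each table has its own scaling, so the ages were not tested against each other, and a share at P21 is read against these percentages. Of the 29 genes higher at P2 that have a P21 value 23 were higher at P21, 1 was lower and 5 were not called. Of the 52 genes lower at P2 33 were lower at P21, 9 were higher and 10 were not called. Of 117 genes uncalled at P2 54 were higher and 33 lower at P21.

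Rod genes were lower at P21 in 8 of 8, the uncalled ones of P2 included. Sag, uncalled at P2, was at 440.6 and 379.8 FPKM in Crx-/- against 1394.0 and 1302.6 FPKM in WT (-1.72 ± 0.11). Nrl, uncalled at P2, was at 87.2 and 82.0 FPKM in Crx-/- against 466.1 and 427.6 FPKM in WT (-2.39 ± 0.14). In both genes the Crx-/- samples lay below the WT samples. Rcvrn changed by -6.00 and Ankrd33 by -4.44.

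Cone genes went 2 ways at P21, with 6 of 10 higher and 2 lower. Opn1sw was at 2.7 and 2.7 FPKM in Crx-/- against 164.5 and 141.0 FPKM in WT (-5.37 ± 0.11), and Pde6h was lower by -2.46. Gngt2, uncalled at P2, was at 307.7 and 259.6 FPKM in Crx-/- against 52.6 and 48.8 FPKM in WT (2.46 ± 0.18), and Gnb3 at 364.6 and 312.0 FPKM in Crx-/- against 122.8 and 119.1 FPKM in WT (1.47 ± 0.13). Samd7 was at 146.2 and 132.6 FPKM in Crx-/- against 41.6 and 43.5 FPKM in WT (1.69 ± 0.10). Obox6 was higher at P21 too, at 23.0 and 21.0 FPKM in Crx-/- against 0.2 and 0.4 FPKM in WT. Gje1, a connexin-like gene, was at 27.3 and 22.8 FPKM in Crx-/- against 0.1 and 0.1 FPKM in WT. Over all photoreceptor lists 34 of the 50 members with values at both ages were lower at P21 and 11 were higher.

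**Figure D5:**
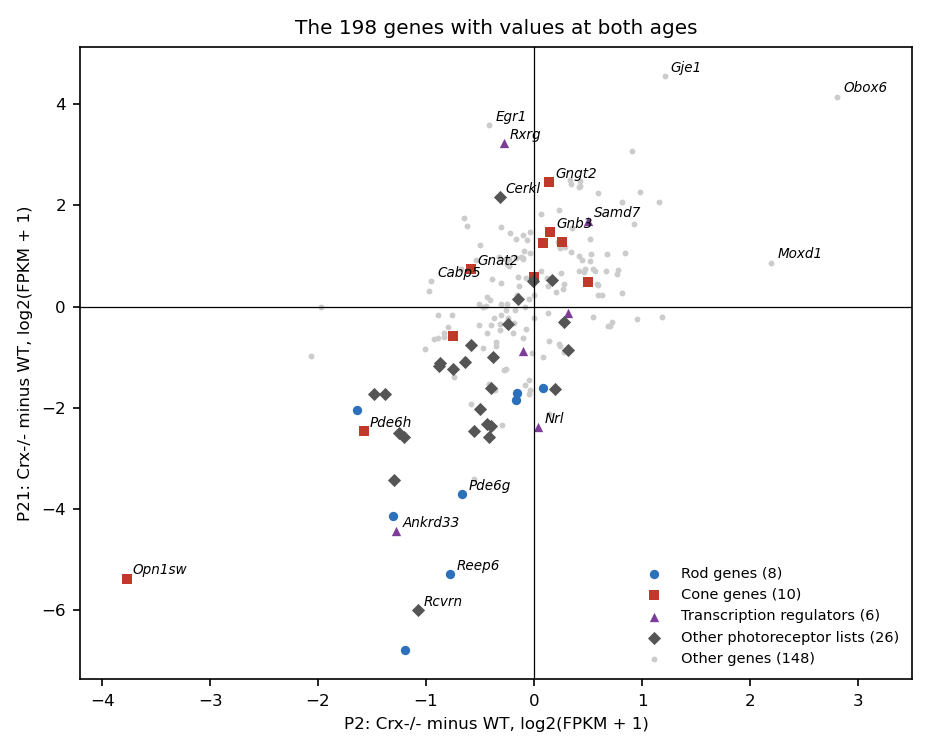
Change in Crx-/- against WT at P21 (y axis) against that at P2 (x axis), both as differences of log2(FPKM + 1), for the 198 genes with values at both ages; markers give rod genes, cone genes, transcription regulators, other photoreceptor lists and other genes. All 8 rod genes lie below 0 at P21 and Opn1sw lies at -3.77 and -5.37, while Rxrg, Gngt2 and Gnb3 lie near 0 at P2 and above 1 at P21.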

How the data were processed

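Whole-retina RNA of 10 P2 samples (5 genotypes, 2 each) was used, with the P21 table beside it. The deposited values are FPKM, as the file headers say, with 1 decimal, so read counts and depth are unknown and no counting interval was computed. The authors' adjusted p-values and log2 fold changes per the file headers were used to see which genes passed their threshold (adjusted p under 0.05, a change of 1 or more on the log2 scale, a mean of 2 FPKM or more in a group), and the authors' mean FPKM per genotype for their scaling. DESeq is named in the submitters' processing notes. Aligner, counter, build and annotation: not given in the sources used here.

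The fit was limma (version 3.58.1, R 4.3.3) on log2(FPKM + 1), with all 10 samples of an age, 1 term per genotype, a variance trend and empirical Bayes moderation (5 residual and 2.95 prior degrees of freedom at P2), checked on simulated data. Two-sided p values got a Benjamini-Hochberg adjustment over 566 genes at P2 and 1497 at P21. With 2 samples against 2, the smallest p of an exact permutation test is 0.333. Genes had been selected on these samples, so the share of false calls at the threshold is not known, and p-values measure the spread between pools of retinas. Alternatives were another added constant (0.1), a floor of 2 FPKM, 2 rescalings, no variance trend, the 4 samples alone, a replicate block and leaving out each sample.

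The 26 gene lists and the comparison were chosen with earlier results of these data known. Named genes were all photoreceptor transcription regulators and Crx neighbours in the table, the 15 largest called rises and falls with a mean of at least 5 FPKM and no overlap, up to 5 called and 3 uncalled members per list, and 5 genes each way per direct comparison; a subset is given. Zinc finger genes, the promoters of Guca1a, Lrit1 and Lrit2, the genes called in the same direction against all other genotypes, and the uncalled members named in passing were chosen after their values were seen. Current symbols and gene order are from RefSeq (563 of 566 genes matched by transcript); positions in the files' own build are not given. Some members counted in the lists are not reported here by name.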

Additional observations from a re-analysis of the deposited data

Results flagged for a closer look

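In 13 of the genes named by the rule given above, every Crx-/- sample lay on one side of WT at P2 and on the other side at P21. Genes named only after their values were seen are not among the 13. Pcare, which is one of these, changed sides too (0.54 at P2 and -0.20 at P21, the second not called). At P2 alone the samples of the genotypes did not overlap for 420 of the 566 genes (74.2%). How many of the 198 genes with values at both ages changed sides was not counted, so the 13 are not shown to be unusual. The difference between the ages was not tested, because the tables were scaled separately. Changes are Crx-/- minus WT in log2(FPKM + 1).

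Among photoreceptor and bipolar genes, Gnat2 of cone transducin changed by -0.59 at P2 and 0.74 at P21, and Rxrg, the retinoid receptor of cones, by -0.28 (not called) and 3.22. Pdc, phosducin, changed by 0.32 at P2 (not called) and -0.86 at P21, and Rgs9 by 0.27 and -0.30, called at neither age. Cabp5 of bipolar terminals changed by -0.95 at P2 and 0.50 at P21.

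Of the immediate early genes, Egr1 changed by -0.42 at P2 and 3.58 at P21, and its P2 call was lost with 0.1 added, after median-of-ratios rescaling, with the 4 samples alone, and without Crx-/- replicate 2, WT replicate 1 or WT replicate 2. Jun changed by -0.67 at P2, not called though called with the 4 samples alone, and by 0.74 at P21. Tafa3 (Fam19a3 in the files), a secreted chemokine-like protein, changed by -0.62 (call lost with 0.1 added) and 1.59. Lmo2 changed by 0.95 and -0.24, the second not called. Socs3, an inhibitor of cytokine signalling, changed by -0.10 (not called) and 0.95. Tnfsf9, a ligand of the tumour necrosis factor family, changed by -0.97 and 0.32, Pnp, a purine nucleoside phosphorylase, by -0.39 (not called) and 0.54, and Acbd7, an acyl-CoA-binding domain protein, by 0.70 (call lost without Crx-/- replicate 2) and -0.38, the second not called.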

How the results depend on the processing

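For Crx-/- against WT at P2 the number of genes called was 161 with 0.1 added, 166 with the floor of 2 FPKM, 143 after median-of-ratios rescaling, 162 with the authors' scaling, 176 with no variance trend and 182 with the 4 samples alone, against 169. Rescaling by the median of ratios called 86 higher and 57 lower and the authors' scaling 56 and 106, against 52 and 117. Without 1 of the samples there were 72 to 92 genes in all, 21 to 35 higher and 51 to 62 lower. For Crx-/- against CrxRip/+ leaving out 1 sample gave 78 to 93 in place of 162. For Crx-/- against CrxRip/Rip it gave 136 to 235 in place of 234, and the 4 samples alone gave 133. For Crx-/- against Nrl-/- leaving out 1 sample gave 403 to 421 and median-of-ratios rescaling 261, in place of 446. At P21 leaving out 1 sample gave 1111 to 1128 in place of 1217. The causes of these movements were not tested. The fits that leave 1 out have fewer samples, and the lone sample of its genotype is taken to vary like the other genotypes. No call of the 169 genes changed direction under any of these settings. Of 62 named genes that were called, 39 kept their call in every setting tried.

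With the replicate block 203 genes were called for Crx-/- against WT, 60 higher and 143 lower. Pcp2 lost its call with the block, and Jun, Prph2, Rp1 and Rgs5 gained one. Replicate numbers were not taken as pairs: the correlation across genes of same-numbered deviations was 0.178 between Crx-/- and WT and lay between -0.24 and 0.33 over all pairs of P2 genotypes. Depth is unknown, and rounding to 1 decimal limits values below 1 FPKM.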

Other observations

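Slc7a11, the cystine transporter, fell by 1.54 on the log2 scale, and Cth, which makes cysteine, by 0.74, both in every setting tried, beside the fall of Gsta4 given above. Nfe2l2, a regulator of antioxidant genes, had a change of -0.44 that lost its call after rescaling and without Crx-/- replicate 1, Crx-/- replicate 2 or WT replicate 2. Gstm6, another glutathione transferase, rose by 1.06. These genes were chosen after their values were seen.

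Polr1d, a subunit of RNA polymerases I and III, rose by 1.27. It lies on chromosome 5, as do Rpl21 and Hmgb1, with 4 protein-coding genes between Polr1d and Rpl21 and 18 between Rpl21 and Hmgb1 in RefSeq. Chromosome 5 held 24 genes of the table, of which 5 were higher, beside 9.19% of all genes. The genes were set together after their values were seen, and no test of position was made. The reservation about pseudogenes given above for Rpl21 and Hmgb1 applies here too.

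The genes whose change passed the authors' threshold but was not called here were Ano3, Egfr, Eno1b, Hbb-bs, Hdhd3, Klhl33, Klk1b22, Optc, Rgs5 and Rpl29. In Ano3 the samples stood at 0.3 and 0.2 FPKM in Crx-/- and at 4.5 and 0.2 FPKM in WT, in Klhl33 at 1.6 and 1.2 FPKM in Crx-/- and at 5.7 and 1.1 FPKM in WT, so that, as for Klk1b22, a single WT sample carries the difference.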
